A study of Mus musculus with 8 samples.

Results

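Hyaluronan is a long, unsulfated glycosaminoglycan, a chain of alternating glucuronic acid and N-acetylglucosamine that fills the space around cells and forms part of the endothelial glycocalyx, the sugar coat on the blood side of vessels. It is made at the plasma membrane by hyaluronan synthases, cut by hyaluronidases at the cell surface and in lysosomes, and held or taken up by receptors. In the glomerulus, the filter of the kidney, it has been described as a component of the coat over the fenestrated endothelium. The genes described here are 8 in number, named from this known biology: the synthases Has1, Has2 and Has3, the hyaluronidases Hyal1 and Hyal2, and the receptors Cd44, Stab1 and Stab2. Of these, 7 were measured among 17326 genes with a readable count in every library, and Has2 was not analysed here. The 7 genes all passed the filter on low counts, which left 16477 genes for testing.

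The RNA came from mouse kidney cells separated by fluorescence-activated cell sorting, labelled endothelium or podocyte (the epithelial cell on the outer face of the filter), and the series describes both as glomerular. Mice were wild type (EMCN+/+) or homozygous for loss of Emcn (EMCN-/-), the gene of endomucin, a sialomucin of the endothelial surface, and the study asked what its loss does to the glomerulus. Each of the 4 combinations of cell type and genotype had 2 libraries, numbered 2 and 3. The labels used here give no strain, age, treatment or design of the knockout allele, and they do not say whether the 2 libraries of a group came from separate animals, so p-values measure the spread between these libraries, which may be technical.

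The libraries held between 10478956 and 17386042 counts on readable lines. Emcn in the knockout libraries stood at 9.27% of the wild-type level in endothelium and 9.57% in podocytes, the direction of the labels. The 6 endothelial markers that could be read (Pecam1, Cdh5, Kdr, Tek, Flt1 and Ehd3) summed to 5731 to 7012 CPM (read counts relative to library size after TMM scaling, edgeR's correction for library composition) in endothelium and 297 to 486 in podocytes. The podocyte markers Wt1 and Synpo ranged from 283 to 565 CPM and from 1727 to 4773 CPM in podocytes, against 25.5 to 55.2 CPM and 137 to 333 CPM in endothelium. Distal nephron markers (Umod, Calb1 and Aqp2) reached 2402 to 14135 CPM over all 8 libraries, so neither sort was free of tubule RNA. Replicate 3 of wild-type endothelium stood apart on the second principal component, which carried 18.6% of the variance, and had the highest mitochondrial share, 26.2%. In such bulk samples, fewer cells of a type and less RNA per cell cannot be told apart.

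Hyal2 and Stab1 were higher in endothelium than in podocytes in both genotypes and Hyal1 in wild type, and Stab2, the closest relative of Stab1, did not pass the test in either. Their promoters, from 250 bases before to 50 bases after the start site in the RefSeq table of GRCm38.p6, are shown for these 4 genes side by side. Each is written 5′ to 3′ on the strand of the gene, with capitals at every AGGAAG (the core bound by ETS factors, a family that includes regulators of endothelial genes) or its reverse complement CTTCCT.
Stab1 promoter, chr14:31168592-31168891, minus strand: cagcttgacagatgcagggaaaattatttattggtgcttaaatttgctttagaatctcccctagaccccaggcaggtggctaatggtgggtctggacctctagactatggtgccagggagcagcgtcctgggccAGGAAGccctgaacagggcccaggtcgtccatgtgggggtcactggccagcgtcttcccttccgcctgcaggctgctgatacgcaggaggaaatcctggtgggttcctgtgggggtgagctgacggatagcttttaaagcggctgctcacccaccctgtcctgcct
Hyal2 promoter, chr9:107568913-107569212, plus strand: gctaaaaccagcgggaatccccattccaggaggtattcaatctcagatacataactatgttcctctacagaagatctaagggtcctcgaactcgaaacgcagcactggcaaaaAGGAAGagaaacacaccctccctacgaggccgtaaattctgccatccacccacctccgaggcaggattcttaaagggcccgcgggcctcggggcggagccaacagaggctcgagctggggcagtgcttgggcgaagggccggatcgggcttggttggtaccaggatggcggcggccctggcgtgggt
Hyal1 promoter, chr9:107576700-107576999, plus strand: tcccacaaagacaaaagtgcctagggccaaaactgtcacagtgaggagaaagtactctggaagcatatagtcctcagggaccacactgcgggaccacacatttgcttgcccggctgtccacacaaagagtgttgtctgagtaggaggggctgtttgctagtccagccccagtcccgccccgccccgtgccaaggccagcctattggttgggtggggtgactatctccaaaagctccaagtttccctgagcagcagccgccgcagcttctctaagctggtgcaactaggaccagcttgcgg
Stab2 promoter, chr10:87007893-87008192, minus strand: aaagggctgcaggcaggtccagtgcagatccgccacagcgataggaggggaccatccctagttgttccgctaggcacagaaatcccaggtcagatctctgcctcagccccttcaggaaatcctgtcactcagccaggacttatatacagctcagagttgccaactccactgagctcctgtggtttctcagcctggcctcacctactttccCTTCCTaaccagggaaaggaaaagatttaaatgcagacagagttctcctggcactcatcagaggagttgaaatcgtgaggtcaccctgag

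AGGAAG on either strand was found once in the Stab1, Hyal2 and Stab2 windows and not in the Hyal1 window. Its first base lay at −116 from the start site in Stab1, −137 in Hyal2 and −40 in Stab2. Of 32544 promoter windows of the same length in the table, 35.1% held at least 1 match, so the motif was present with and without a higher level in endothelium. The GC box GGGCGG (bound by SP and KLF factors) was found on either strand in Hyal2 once and in Hyal1 at 2 places, not in Stab1 or Stab2, against 35.9% of all windows. The Hyal2 window had a CG dinucleotide at 18 places, against 7 in the Stab1 window, 8 in the Hyal1 window and 4 in the Stab2 window, and a median of 7 over all windows. The Cd44 window, of a gene that did not differ by cell type past the threshold, held AGGAAG at 3 places. These matches describe letters only.

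**Figure D1:**
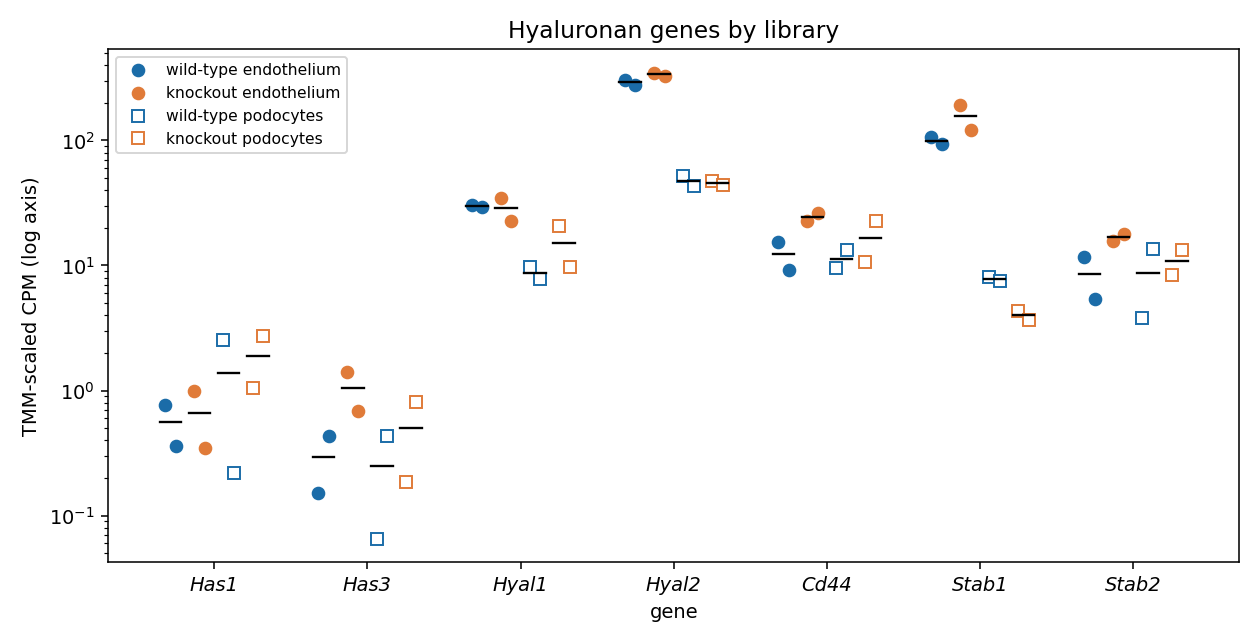
TMM-scaled CPM (vertical axis, log scale) of the 7 hyaluronan genes in each of the 8 libraries; filled circles are endothelium, open squares podocytes, blue wild type, orange Emcn knockout, and black bars the mean of 2 libraries. Hyal2 and Stab1 are separated by cell type by far more than by genotype, and Has1 and Has3 lie at or below 2.73 CPM in every library.

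The synthases were close to the limit of detection. Has1 (Entrez 15116, chromosome 17, 17843323 to 17855205, minus strand, GRCm38) encodes a synthase of the plasma membrane. Its counts were 10 and 5 in wild-type endothelium, 14 and 4 in knockout endothelium, 39 and 3 in wild-type podocytes and 17 and 37 in knockout podocytes. The highest and the lowest of these 8 counts came from the same group, wild-type podocytes. The endothelial level was 0.561 ± 0.281 CPM (SD, n = 2) without and 0.666 ± 0.455 CPM with the Emcn loss, and the podocyte level 1.37 ± 1.63 and 1.89 ± 1.18 CPM.

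Has3 (Entrez 15118, chromosome 8, 106870242 to 106884566, plus strand), a further synthase of the family, had 2 and 6 counts in wild-type endothelium, 20 and 8 in knockout endothelium, 1 and 6 in wild-type podocytes and 3 and 11 in knockout podocytes. Knockout endothelium lay above wild-type endothelium in both libraries, and the podocyte groups overlapped. Neither synthase passed the test by cell type or genotype, with edgeR adjusted p-values of 0.475 to 0.999997 over the 5 contrasts for Has1 and 0.626 to 0.999997 for Has3. At such counts the fit left a wide interval: the 95% interval of the genotype effect on Has3 in endothelium ran from −0.79 to 4.41 on the log2 scale. Has3 overlaps Chtf8 on the opposite strand by 704 bases, and how reads there were assigned is uncertain because the use of strand is not given in the sources used here.

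Of the hyaluronidases, Hyal2 was the most abundant member. Hyal2 (Entrez 15587, chromosome 9, 107567945 to 107572779, plus strand) encodes a hyaluronidase anchored at the cell surface, which cuts long chains into fragments. It stood at 305 and 277 CPM in wild-type endothelium and 348 and 328 CPM in knockout endothelium, against 52.4 and 43.1 CPM in wild-type podocytes and 47.5 and 44.1 CPM in knockout podocytes. All 4 endothelial libraries lay above all 4 podocyte libraries, and replicates of a group were close together.

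Hyal2 was higher in endothelium by a log2 fold change of 2.61 (SE 0.22, 6.09-fold, edgeR adjusted p 7.73e-05) in wild type. In knockout the value was 2.88 (SE 0.23, 7.38-fold, edgeR adjusted p 4.88e-05), from other libraries, although both contrasts share the spread estimated in 1 fit. The podocyte level was 16.4% of the endothelial level in wild type and 13.5% in knockout. Endothelial markers measured the same way stood in podocytes at 4.25% to 8.72% of their endothelial level in wild type and 3.28% to 6.34% in knockout, so Hyal2 in podocytes lay above the range of these 6 markers. Per kilobase of transcript, Hyal2 was the highest member in each of the 4 groups, from 98.0 ± 6.82 CPM per kb (SD, n = 2) in wild-type endothelium to 15.4 ± 0.802 CPM per kb in knockout podocytes. An antisense RNA overlaps 471 bases of the gene.

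Hyal1 (Entrez 15586, chromosome 9, 107576927 to 107581710, plus strand) lies beside Hyal2 and encodes the lysosomal hyaluronidase that degrades the fragments further. It stood at 30.6 and 29.6 CPM in wild-type endothelium, 34.9 and 22.8 CPM in knockout endothelium, 9.66 and 7.77 CPM in wild-type podocytes and 20.6 and 9.81 CPM in knockout podocytes. Replicate 2 of knockout podocytes lay well above the other 3 podocyte libraries and still below every endothelial library. In wild type, Hyal1 was higher in endothelium by a log2 fold change of 1.79 (SE 0.38, 3.45-fold, edgeR adjusted p 0.0132). This call was lost when any 1 of the 4 wild-type libraries was left out, with edgeR adjusted p-values of 0.0537 and 0.0544 without endothelial replicates 2 and 3, 0.0825 and 0.114 without podocyte replicates 2 and 3, and log2 fold changes of 1.64 to 1.97. In knockout the difference was 0.92 (SE 0.37, edgeR adjusted p 0.166), which among the alternatives run passed only without replicate 2 of knockout podocytes (1.55, edgeR adjusted p 0.0424). Hyal1 shares 893 bases with Hyal3 and 2824 bases with Naa80 on the same strand, so its count is uncertain where reads fell in both. An antisense model on the opposite strand, Gm16343, covers all 4784 bases of the gene.

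Stab1 showed the widest gap between the cell types. It encodes stabilin-1 (Entrez 192187, chromosome 14, 31139013 to 31168641, minus strand), a scavenger receptor of sinusoidal endothelium and of macrophages. Levels were 107 and 92.9 CPM in wild-type endothelium, 193 and 122 CPM in knockout endothelium, 8.10 and 7.48 CPM in wild-type podocytes and 4.29 and 3.69 CPM in knockout podocytes. The 4 groups were fully separated, in the order knockout endothelium, wild-type endothelium, wild-type podocytes, knockout podocytes.

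In wild type Stab1 was higher in endothelium by a log2 fold change of 3.68 (SE 0.28, 12.8-fold, edgeR adjusted p 5.02e-05), and in knockout by 5.30 (SE 0.31, 39.4-fold, edgeR adjusted p 2.39e-05). Its podocyte level was 7.81% of the endothelial level in wild type, inside the range of the endothelial markers given above, and 2.53% in knockout, below their range. Macrophage markers, which mark another cell type that makes Stab1, went in both directions. Of the 14 listed, 8 could be read, and their sum was 29.4 to 61.7 CPM in endothelium and 82.9 to 126 CPM in podocytes, where Csf1r alone averaged 71.2 CPM in wild type and 91.7 CPM in knockout. The other 7 had a higher mean sum in endothelium, 38.7 against 19.7 CPM in wild type, where the libraries overlapped, and 31.2 against 13.8 CPM in knockout, where they did not. Lyz2 made up most of the wild-type endothelial sum, at 36.3 and 15.9 CPM against 12.8 and 8.35 CPM in podocytes. Adgre1 overlapped between the wild-type groups, and Cx3cr1 averaged at most 0.634 CPM in any group. Their part in the Stab1 difference was not tested. Stab1 and Nt5dc2 overlap by 112 bases on opposite strands.

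Stab2, stabilin-2 or HARE (Entrez 192188, chromosome 10, 86841198 to 87008025, minus strand), is the clearance receptor that removes hyaluronan from blood in liver and lymph node sinusoids. It stood at 11.6 and 5.43 CPM in wild-type endothelium, 15.7 and 17.9 CPM in knockout endothelium, 3.82 and 13.5 CPM in wild-type podocytes and 8.33 and 13.3 CPM in knockout podocytes. The wild-type endothelial and podocyte libraries overlapped. The cell types differed by −0.02 (SE 0.57) on the log2 scale in wild type, with a 95% interval of −1.28 to 1.24, and by 0.63 (SE 0.56) in knockout, with an interval of −0.62 to 1.88 (edgeR adjusted p 0.994 and 0.564). In knockout both endothelial libraries lay above both podocyte libraries, as for 27.3% of all tested genes. Per kilobase of transcript the paralogues stood at 12.5 ± 1.21 CPM per kb (SD, n = 2) for Stab1 and 1.04 ± 0.533 CPM per kb for Stab2 in wild-type endothelium. In wild-type podocytes their libraries overlapped, at 0.974 ± 0.0552 CPM per kb for Stab1 and 1.05 ± 0.832 CPM per kb for Stab2. Several antisense and pseudogene models lie on the opposite strand within Stab2, the longest sharing 35810 bases.

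Cd44 (Entrez 12505, chromosome 2, 102811141 to 102901665, minus strand), the main cell-surface receptor for hyaluronan on leukocytes and on activated glomerular epithelium, stood at 15.4 and 9.19 CPM in wild-type endothelium, 22.5 and 26.3 CPM in knockout endothelium, 9.46 and 13.2 CPM in wild-type podocytes and 10.6 and 22.6 CPM in knockout podocytes. Endothelium and podocytes overlapped in both genotypes. The difference between them was 0.12 (SE 0.41) on the log2 scale in wild type, with a 95% interval of −0.79 to 1.03, and 0.55 (SE 0.41) in knockout, with an interval of −0.35 to 1.46 (edgeR adjusted p 0.929 and 0.469). Of 7 lymphocyte markers, 3 could be read (Cd4, Cd79a and Nkg7), and they summed to at most 1.69 CPM in any library.

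**Figure D2:**
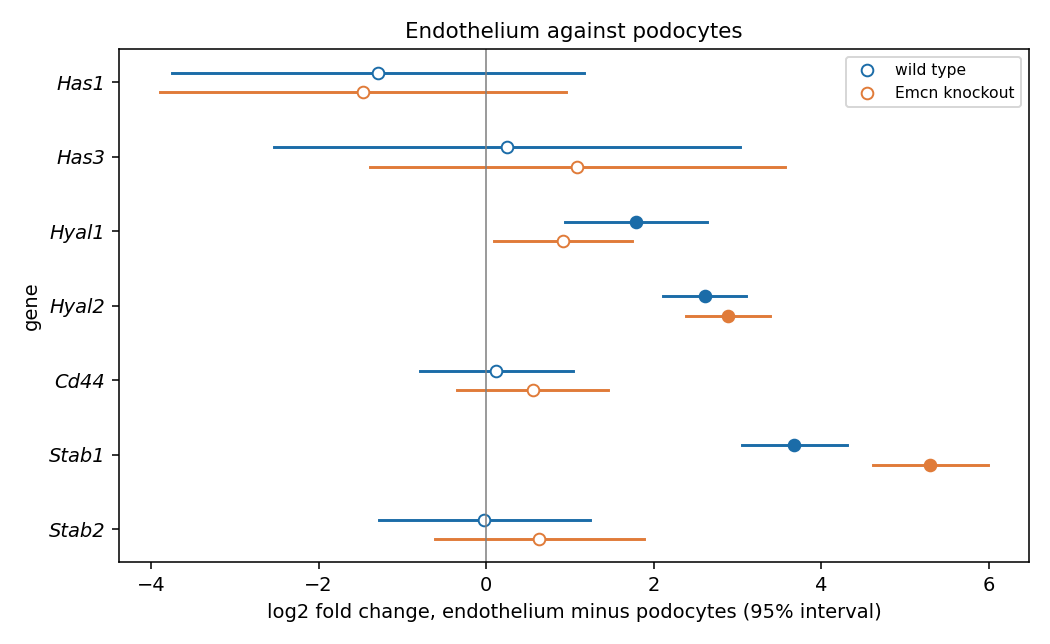
Log2 fold change of endothelium over podocytes (horizontal axis) for each of the 7 genes, in wild type (blue) and Emcn knockout (orange), with the 95% interval of the edgeR fit; filled points passed an adjusted p of 0.05. Hyal2 and Stab1 pass in both genotypes, Hyal1 in wild type, and the intervals of Has1, Has3, Cd44 and Stab2 include 0.

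Counted together, 3 of the 7 members were higher in wild-type endothelium and 0 lower at an edgeR adjusted p under 0.05, beside 4.26% of all 16477 tested genes higher and 4.73% lower. In knockout 2 of 7 were higher (Hyal2 and Stab1) and 0 lower, beside 4.28% and 6.09% of all tested genes. Both endothelial libraries lay above both podocyte libraries for 3 of 7 members in wild type (Hyal1, Hyal2 and Stab1), beside 21.2% of all tested genes, and for 4 of 7 in knockout (these and Stab2), beside 27.3%. Has1 was the member with both knockout endothelial libraries below, beside 27.8% of all tested genes. The median log2 difference over the 7 members was 0.25 in wild type and 0.92 in knockout, against −0.01 and −0.01 over all tested genes. Without replicate 3 of wild-type endothelium, the library that stood apart, the wild-type values were 2.67 for Hyal2 (edgeR adjusted p 0.000426) and 3.77 for Stab1 (edgeR adjusted p 0.000231).

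Within a group, the order of the members per kilobase of transcript was Hyal2, Stab1, Hyal1, Cd44, Stab2, Has1 and Has3 in endothelium of both genotypes. Each gene's 2 libraries lay above those of the next gene in wild-type endothelium, and in knockout endothelium Has1 and Has3 overlapped. In wild-type podocytes the order was Hyal2, Hyal1, Cd44, Stab2, Stab1, Has1 and Has3, with overlap between Stab2 and Stab1 and between Stab1 and Has1. In knockout podocytes Has1 came before Stab1, and the pairs Hyal1 and Cd44, Stab2 and Has1, and Has1 and Stab1 overlapped.

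Emcn loss was examined next, and no member passed the test in either cell type. In endothelium 0 of 7 members passed an edgeR adjusted p of 0.05, beside 0.00607% of all tested genes, which was Emcn alone. Without adjustment 2 of 7, Cd44 and Stab1, had a p under 0.05, beside 5.49% of all tested genes. DESeq2 called 0 of 7 members and 4 of 16477 genes, with 1 member and 1095 genes at an unadjusted p under 0.05. Both knockout libraries lay above both wild-type libraries for 5 of 7 members (Has3, Hyal2, Cd44, Stab1 and Stab2), beside 24.8% of all tested genes in that direction. The median log2 difference was 0.66 over the members and 0.01 over all tested genes.

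Among the receptors in endothelium, the log2 fold change was 0.66 for Stab1 (SE 0.25), 0.99 for Cd44 (SE 0.41) and 0.98 for Stab2 (SE 0.57), each with an edgeR adjusted p of 0.716. The 95% intervals ran from 0.10 to 1.22 for Stab1, 0.075 to 1.90 for Cd44 and −0.28 to 2.24 for Stab2, so a log2 difference of 1 lay inside each of them. Replicate 2 of knockout endothelium had the higher Stab1 value of the group, and without it the log2 fold change was 0.29. Without wild-type replicate 3 the values were 0.55 for Stab1, 0.65 for Cd44 and 0.52 for Stab2. Hyal2 differed by 0.22 (SE 0.21, 95% interval −0.25 to 0.68) and Hyal1 by −0.06 (SE 0.37, interval −0.87 to 0.75). The endothelial marker sum was 6226 to 6719 CPM in knockout endothelium, inside the wild-type range of 5731 to 7012 CPM. Summed markers of some other kidney cells also stood apart between these genotypes, whereas the podocyte sum and the mesangial and mural sum overlapped. Distal nephron markers summed to 6384 to 14135 CPM in wild-type and 2402 to 6102 CPM in knockout endothelium, and parietal epithelium markers to 174 to 431 and 148 to 157 CPM. Umod and Calb1 were lower in both knockout libraries, and Aqp2 overlapped. Of the 5 parietal markers, Krt8 and Krt18 were lower in both knockout libraries, and Cldn1, Pax2 and Pax8 overlapped. The proximal tubule sum went the other way, from 207 to 346 CPM in wild type to 382 to 625 CPM in knockout. Aqp1 carried that sum, at 126 and 221 CPM in wild type and 518 and 311 CPM in knockout. Lrp2 (log2 difference 0.21) was also higher in both knockout libraries, whereas Miox (−1.08) and Cubn (0.23) overlapped. Of the 8 macrophage markers, Csf1r (log2 difference 0.72) and Cd163 (1.07) were higher in both knockout libraries and the other 6 overlapped, as did their sum, 29.4 to 61.7 CPM in wild type and 34.1 to 50.9 CPM in knockout. The lymphatic markers summed to 52.3 to 67.2 CPM in wild type and 78.2 to 97.7 CPM in knockout. The part of these markers in the differences of the members was not tested.

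In podocytes 0 of 7 members passed, again beside 0.00607% of all tested genes. Stab1 alone had an unadjusted p under 0.05, beside 4.43% of all tested genes, and DESeq2 called 0 of 7 members and 8 of 16477 genes, with 1 member and 793 genes at an unadjusted p under 0.05. Its log2 fold change was −0.96 (SE 0.28, edgeR adjusted p 0.978), and knockout stood at 51.2% of the wild-type level. The sum of the endothelial markers in these sorted podocytes was also lower in knockout, at 297 to 315 CPM against 354 to 486 CPM. Ehd3 carried this, at 193 and 125 CPM in knockout against 307 and 216 CPM in wild type. The other 5 overlapped in sum, at 122 to 172 CPM against 138 to 179 CPM, and of all 6 markers 2 had positive log2 differences (Pecam1 0.05 and Flt1 0.25) and 4 negative ones (Ehd3 −0.72, Cdh5 −0.50, Kdr −0.28 and Tek −0.15). The podocyte marker Wt1 was lower in both knockout libraries, at 283 and 389 CPM against 565 and 421 CPM, whereas Synpo overlapped. The 4 readable proximal tubule markers had positive log2 differences, with sums of 591 to 2142 CPM in knockout and 399 to 768 CPM in wild type. Of the 8 macrophage markers, Adgre1 (−1.18) and Lyz2 (−1.01) were lower in both knockout podocyte libraries, Cd163 (2.06) and Csf1r (0.37) were higher in both, and the other 4 overlapped. The distal nephron marker Calb1 was lower in both (−1.52), whereas Umod and Aqp2 overlapped. None of these markers passed the edgeR test, and their part in the Stab1 difference was not tested. Hyal1 was the member for which both knockout libraries lay above both wild-type ones, by 0.81 (SE 0.38, edgeR adjusted p 0.978), although 1 of them exceeded the higher wild-type library by only a small margin, at 9.81 against 9.66 CPM. Leaving out 1 podocyte library at a time gave 0.17 to 1.24, the lowest without knockout replicate 2. Groups without overlap made up 15.1% (higher) and 16.0% (lower) of all tested genes in podocytes. Hyal2 differed by −0.06 (SE 0.21, interval −0.53 to 0.41), Cd44 by 0.55 (SE 0.41) and Stab2 by 0.32 (SE 0.57).

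**Figure D3:**
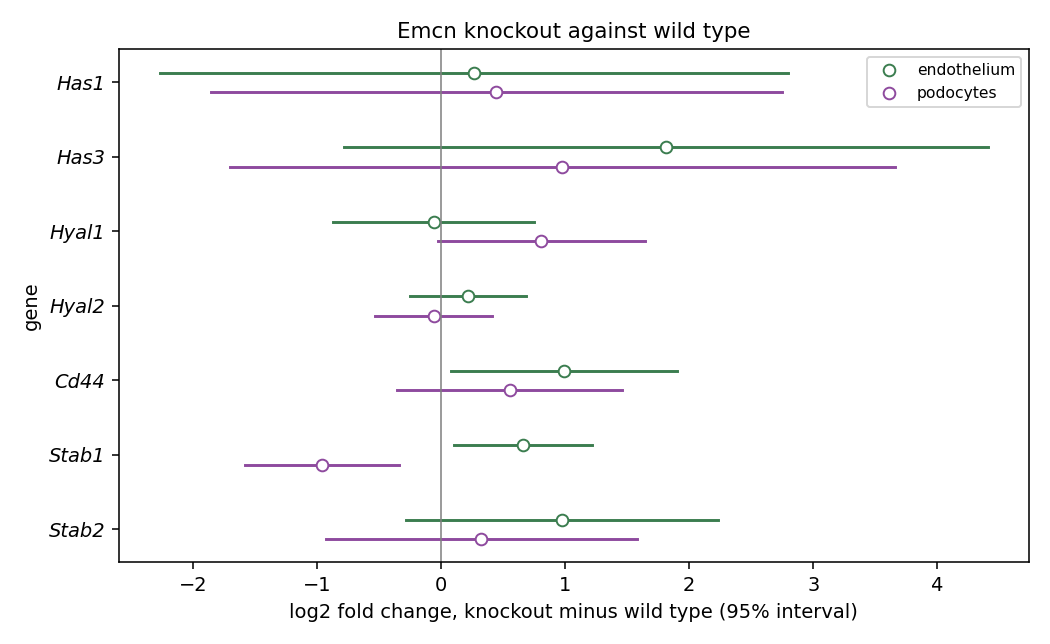
Log2 fold change of Emcn knockout over wild type (horizontal axis) for each of the 7 genes, in endothelium (green) and podocytes (purple), with the 95% interval of the edgeR fit; open points did not pass an adjusted p of 0.05. All points are open, the narrowest intervals are those of Hyal2, and Stab1 lies at 0.66 in endothelium and −0.96 in podocytes.

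Whether the genotype effect differed between the cell types was tested as an interaction. For Stab1 this term (endothelial effect less podocyte effect) was 1.62 (SE 0.38, 95% interval 0.79 to 2.46), with an edgeR unadjusted p of 0.00142 and an adjusted p of 0.999997. It ran from 1.25 to 1.91 when each of the 8 libraries was left out in turn. Of all tested genes 2.60% had an unadjusted p under 0.05 in this contrast and 0 passed after adjustment. The other 6 members had terms between −0.87 (Hyal1) and 0.84 (Has3), all with intervals that included 0.

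Cd44 and Stab2 varied across libraries together with some transcripts that kidney cells are not known for. Hyal6, Hyal5 and Spam1, hyaluronidase genes best known from testis and sperm, were read in these libraries, and they were singled out after their values were seen. Hyal6 stood at 5.55 and 4.63 CPM in wild-type endothelium, 8.95 and 9.98 CPM in knockout endothelium, 3.18 and 7.48 CPM in wild-type podocytes and 6.96 and 7.23 CPM in knockout podocytes. Knockout endothelium had the highest mean, as it had for Has3, Hyal2, Cd44, Stab1 and Stab2. Spam1 was also higher in both knockout endothelial libraries, with 27 and 28 counts against 18 and 5, whereas Hyal5 overlapped, with 4 and 9 counts against 12 and 0. Per kilobase, Hyal6 ranged from 0.92 to 2.89 CPM over the 8 libraries, Stab2 from 0.46 to 2.17 and Cd44 from 1.64 to 4.69.

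A broader sum was also highest in knockout endothelium. The 595 readable genes of odorant, vomeronasal and trace amine receptors, families best known from sensory neurons of the nose, summed to 699.7 and 401 CPM in wild-type endothelium and 1005 and 906 CPM in knockout endothelium. In podocytes the sum was 303 and 539 CPM in wild type and 479.6 and 626 CPM in knockout. Across the 8 libraries, which share their scaling, the Pearson correlation of log2 CPM with this sum was 0.92 for Stab2 and 0.90 for Cd44, 0.73 for Has3, 0.56 for Hyal2, 0.55 for Stab1, 0.46 for Hyal1 and −0.25 for Has1. Of the tested genes outside these receptor families, 1.56% had a correlation at least as high as that of Stab2 and 3.04% at least as high as that of Cd44.

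With the log2 receptor sum as a further term in the edgeR fit, a choice made after seeing the data, the endothelial genotype differences were 0.26 for Cd44, −0.39 for Stab2 and 0.59 for Stab1. The sum itself lay apart between the endothelial genotypes, so that term and this contrast overlap and their parts cannot be told apart. Over all tested genes, those at an edgeR unadjusted p under 0.05 in this contrast fell from 905 to 213. The cell-type differences of Stab1 and Hyal2 stayed past the threshold in both genotypes under that fit, with edgeR adjusted p-values from 0.00148 to 0.00478. What the receptor reads stand for was not tested.

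**Figure D4:**
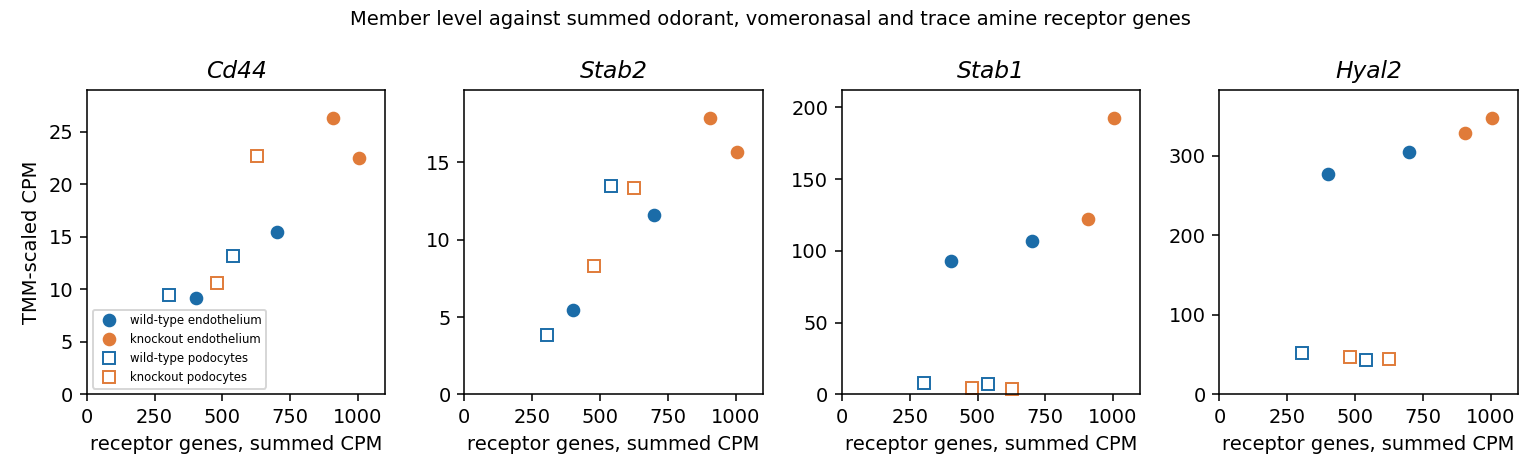
TMM-scaled CPM of Cd44, Stab2, Stab1 and Hyal2 (vertical axes) against the summed CPM of 595 odorant, vomeronasal and trace amine receptor genes (horizontal axis), 1 point per library; filled circles are endothelium, open squares podocytes, blue wild type and orange knockout. Cd44 and Stab2 are higher where the sum is higher (correlations on log2 values of 0.90 and 0.92), whereas Stab1 and Hyal2 separate by cell type.

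Other genes of the pathway were examined by role, from lists of 8 enzymes of precursor sugar synthesis, 10 of breakdown, 5 receptors and 18 binding proteins of the matrix, of which 8, 8, 5 and 12 could be read and tested. Their counts of called genes stand beside 4.26% of all tested genes higher in endothelium and 4.73% lower in wild type, and 4.28% higher and 6.09% lower in knockout. The precursor enzymes supply UDP-glucuronic acid and UDP-N-acetylglucosamine. Of these, 1 of 8 was lower in endothelium in each genotype: Ugp2, which makes UDP-glucose, which averaged 169 ± 22.1 CPM (SD, n = 2) in podocytes and 96.2 ± 7.70 CPM in endothelium of wild-type mice. Its log2 fold changes were −0.82 (SE 0.22, edgeR adjusted p 0.0478) in wild type and −1.0 (SE 0.22, edgeR adjusted p 0.0171) in knockout. The other 7 did not pass, and the list's median was −0.36 in wild type and −0.44 in knockout.

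In the breakdown list 1 of 8 was higher in endothelium in each genotype and 0 lower. That gene was Cemip2, a hyaluronidase of the cell surface, with 154 and 118 CPM in wild-type and 133 and 142 CPM in knockout endothelium, and 56.8 and 60.8 CPM in wild-type and 45.5 and 47.1 CPM in knockout podocytes. Its log2 fold changes were 1.21 (SE 0.22, edgeR adjusted p 0.00467) and 1.57 (SE 0.22, edgeR adjusted p 0.00115). Cemip2 thus had the same direction as Hyal2, another surface hyaluronidase. Hexa, a lysosomal enzyme subunit that acts on the fragments, averaged 165 CPM in wild-type endothelium and 185 CPM in wild-type podocytes and did not pass.

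Among the 5 other receptors none passed in wild type. In knockout 2 were higher in endothelium, Tlr4 and Layn. Tlr4, an innate immune receptor that hyaluronan fragments are reported to engage, stood at 49.1 and 42.1 CPM in knockout endothelium and at 16.4 and 4.94 CPM in knockout podocytes, where the replicates were far apart, a log2 difference of 2.09 (SE 0.47, edgeR adjusted p 0.0172). Layn, layilin, a hyaluronan-binding membrane protein, differed by 1.22 (SE 0.29, edgeR adjusted p 0.0232). Lyve1, the hyaluronan receptor of lymphatic vessels, was singled out after its values were seen: it had 17 and 3 counts in wild-type endothelium and 57 and 68 in knockout endothelium. The fitted difference, 2.70 on the log2 scale (SE 1.09), did not pass (edgeR adjusted p 0.716). Hmmr, a further receptor of the list, likewise named after its values were seen, was also higher in both knockout endothelial libraries. It stood at 23.7 and 19.4 CPM against 13.4 and 7.17 CPM (log2 difference 1.07, SE 0.41) and did not pass. Among the lymphatic markers Prox1, Flt4 and Ccl21a, whose sum is given above, Flt4 carried the difference between the genotypes, at 58.7 and 43.4 CPM in wild type and 91.1 and 65.3 CPM in knockout, whereas Prox1 overlapped, with a log2 difference of −0.06. Ccl21a, at low counts, was higher in both knockout libraries, with 19 and 26 counts against 7 and 3. The part of these markers in the Lyve1 difference was not tested.

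Of the 12 matrix binding proteins, 1 was higher in endothelium in each genotype and 1 was lower in knockout. Hapln1, a link protein that ties proteoglycans to hyaluronan, was higher by 3.25 (SE 0.66, edgeR adjusted p 0.0102) in wild type and 2.44 (SE 0.62, edgeR adjusted p 0.0306) in knockout, at levels of 5.39 to 8.69 CPM in endothelium and 0.22 to 1.77 CPM in podocytes. Habp2, a protease that binds hyaluronan, was lower in knockout endothelium than in knockout podocytes, with a log2 fold change of −2.24 (SE 0.53, edgeR adjusted p 0.0221), and replicate 2 of knockout podocytes was far above replicate 3, at 107 against 31.8 CPM. For Emcn knockout against wild type, 0 genes of the 4 lists passed the edgeR test in endothelium or podocytes, and 0 in the interaction. Without adjustment 2 receptors, Hmmr and Lyve1, had an edgeR p under 0.05 in endothelium, beside 5.49% of all tested genes. In podocytes 1 breakdown gene did, beside 4.43%. Medians in endothelium were −0.18 for precursor enzymes, 0.20 for breakdown, 0.27 for receptors and 0.67 for matrix proteins, beside 0.01 over all tested genes.

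**Figure D5:**
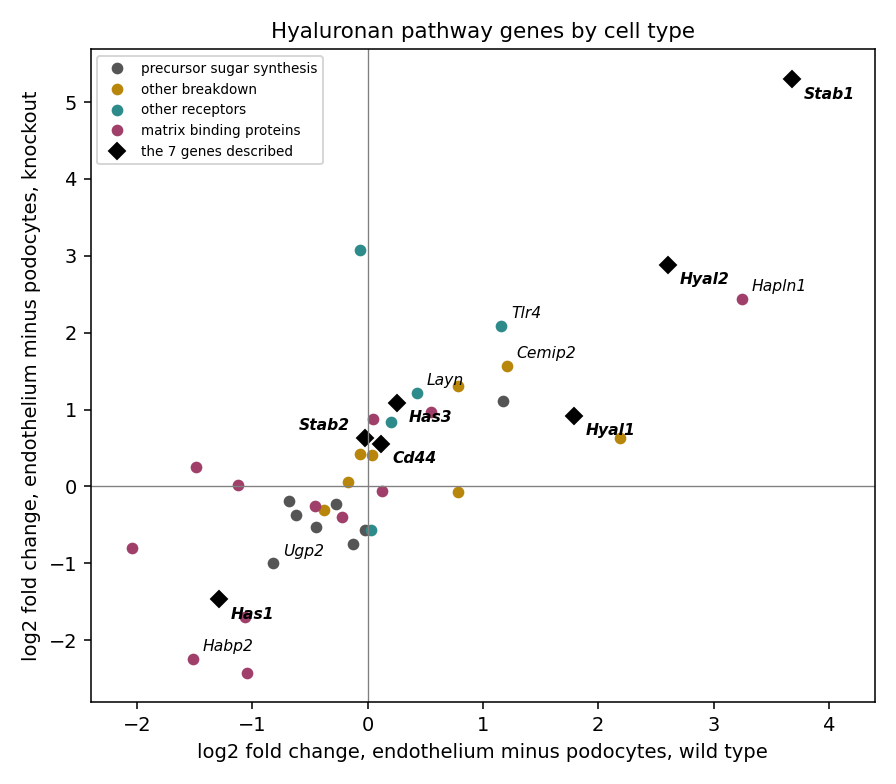
Log2 fold change of endothelium over podocytes in knockout (vertical axis) against wild type (horizontal axis), 1 point per gene; diamonds are the 7 members and circles the other pathway genes, coloured by role, with labels on members and on genes past an adjusted p of 0.05 in either genotype. Stab1, Hyal2, Hapln1 and Cemip2 lie in the upper right, and Ugp2 and Habp2 in the lower left.

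The genes whose log2 CPM followed each member most closely over the 8 libraries were listed among those averaging at least 5 CPM, as a description in which all values share the library scaling. For Hyal2 these were Sox18, an endothelial transcription factor, and Icam2, an endothelial adhesion molecule, with Pearson correlations of 0.999 and 0.999. For Stab1 they were Ndel1 (0.995) and Jak3 (0.993), and for Hyal1 they were Ltbp1 (0.988) and Cpt1c (0.984). For Cd44 they were Fcgbpl1 (0.988) and Csmd1 (0.986), and for Stab2 they were Dscam (0.989) and Rad54l (0.989). The correlations for the sparse synthases were lower, at 0.93 for Has1 with Rbm48 and 0.93 for Has3 with Crtac1.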

How the data were processed

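Polyadenylated RNA of sorted mouse kidney cells was made into TruSeq libraries, per the labels' protocols. All 8 libraries share 1 deposited table, which the authors filled with unnormalized read counts by gene. The submitters' processing notes name mm10 and DESeq2. The aligner, counting tool, annotation and use of strand are not given in the sources used here. Of 22533 gene lines, 5207 (23.11%) do not hold a readable count in each of the 8 deposited columns and were left out. These lines have a comma in the gene description and end before the last columns. Every count column belonged to a labelled library.

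Counts were scaled by TMM and tested with edgeR 4.0.16 in R 4.3.3, as a quasi-likelihood F test in 1 fit with a mean for each of the 4 groups, after filterByExpr, with Benjamini-Hochberg adjustment over 16477 genes and a threshold of 0.05. Intervals are 95% from the same fit. Levels are TMM-scaled CPM, and CPM per kb of the longest protein-coding transcript (GENCODE M21, GRCm38). The members were named whatever their values, as were the pathway genes past the threshold and otherwise the most abundant. Members and lists were chosen with earlier results of these data known. Replicate numbers were not taken to pair libraries. Alternatives were DESeq2 1.42.0, other scalings and filters, a replicate block, mitochondrial genes left out, a fit of only the libraries compared, and each library left out. The fit was tested on simulated data.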

Additional observations from a re-analysis of the deposited data

Results flagged for a closer look

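Stab1, the gene of stabilin-1, was the member whose genotype effects lay in opposite directions in the 2 cell types with no overlap between libraries. In endothelium both knockout libraries were above both wild-type libraries, at 193 and 122 against 107 and 92.9 CPM. In podocytes both were below, at 4.29 and 3.69 against 8.10 and 7.48 CPM. The difference of the 2 effects was 1.62 on the log2 scale, and it did not pass the test across all genes (edgeR adjusted p 0.999997). Among all tested genes, 1.69% had libraries apart in these directions.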

How the results depend on the processing

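The number of members past the threshold was 0 under every alternative run for both genotype contrasts and their difference. Over single members and alternatives, 409 values kept direction and side of the threshold, 43 changed sign, 4 lost the call (Hyal1 in wild type, above) and 1 gained it (Hyal1 in knockout, above), and the cause was not tested. No value that changed sign had passed the test. For knockout against wild type in endothelium, Hyal1 was 0.28 with library size only, 0.10 at a mean of at least 5 CPM and 0.23 with the receptor sum as a term, where Stab2 was −0.39. In podocytes Hyal2 was 0.053 with library size only and 0.0065 at 5 CPM, and Stab2 was −0.23 with the receptor sum. For the difference of effects, Has1 was 0.0091 with library size only and Stab2 −0.16 with the receptor sum. For wild-type cell types, Stab2 was 0.044 with DESeq2 size factors, 0.080 with library size only, 0.044 with DESeq2, 0.033 at 5 CPM, 0.066 without mitochondrial genes and 0.076 in the fit of 4 libraries, and Cd44 was −0.27 with the receptor sum. In knockout, Cd44 was −0.13 and Stab2 −0.71 with the receptor sum.

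Leaving out 1 library at a time gave these ranges of log2 fold changes. In endothelium, Has1 ran from −0.69 to 0.87 and Hyal1 from −0.41 to 0.20. In podocytes, Has1 ran from −0.43 to 3.07, Has3 from −0.38 to 2.76, Hyal2 from −0.20 to 0.11, Cd44 from −0.094 to 0.99 and Stab2 from −0.31 to 1.5. For the difference, Has1 ran from −2.79 to 0.69, Has3 from −0.96 to 2.19, Cd44 from −0.016 to 1.07 and Stab2 from −0.53 to 1.30. For wild-type cell types, Has1 ran from −2.16 to 1.34, Has3 from −0.67 to 2.04, Cd44 from −0.30 to 0.44, Stab2 from −0.67 to 1.15 and Hyal1 from 1.64 to 1.97. A group left with 1 library was assumed to vary like the others.

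Equal replicate numbers correlated by 0.19 in endothelium and 0.16 in podocytes between genotypes, and by −0.13 in wild type and 0.11 in knockout between cell types. With 2 libraries a group, the deviation of replicate 3 from the group mean mirrors that of replicate 2. The pair of replicates 3 therefore adds nothing to the pair of replicates 2. A replicate block changed no call of a member, and moved Stab2 in wild type to 0.15. With that block the wild-type cell-type contrast called 1831 genes, and with the numbers of wild-type podocytes crossed, a pairing added after seeing the data, 1570.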
